A study of Mus musculus with 5 samples.

Results

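Bile acid transport and FXR genes were described as a set of 8 genes, among the 55471 genes for which the colon libraries held estimated counts: Slc10a2, Fabp6, Slc51a, Slc51b, Nr1h4, Nr0b2, Fgf15 and Abcc3. The 8 were chosen by symbol, with results of the propyzamide comparison already known, so their differences between the groups are given as a description and nothing is supported with them. The RNA came from frozen colon pieces of male mice of the C57BL/6 strain, aged 11 weeks, at day 3 of colitis induced by TNBS, a hapten that inflames the gut wall. Mice had been given propyzamide (3 libraries), a herbicide directed against plant microtubules, or vehicle (2 libraries). All animals carried TNBS colitis, no genetic alteration is given in the labels, and colon without TNBS was not analysed here. The series presents propyzamide as tested in a preclinical model of inflammatory bowel disease. The labels give no dose and no segment of colon, and do not say that each library is a separate mouse; p-values reflect only how much these libraries vary.

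Bile acids are made from cholesterol in the liver, enter the gut in bile and are mostly taken back up in the terminal ileum. There Slc10a2 carries them across the brush border, Fabp6 binds them in the cytosol, and Slc51a and Slc51b together form the exporter of the basolateral side, where Abcc3 provides another route. Inside the cell they activate FXR, the nuclear receptor encoded by Nr1h4, which pairs with RXR and induces Nr0b2, Fgf15, Fabp6, Slc51a and Slc51b. The colon normally holds little Slc10a2 and Fabp6, whereas the exporters and FXR are present in its epithelium.

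The promoter stretches of Slc10a2 and Slc51b are shown because these are the members that passed the threshold, and that of Fabp6 because it held the FXR-type matches and yet lay near 0 in every library. They are RefSeq sequences (build GRCm38.p6, minus strand, 5′ to 3′), restricted to bases before any annotated exon of the gene: chr8:5105352-5105537 for Slc10a2, chr9:65422956-65423023 for Slc51b and chr11:43601563-43601812 for Fabp6. Capitals mark matches to the motifs described after them, and the Slc10a2 stretch has none.
Slc10a2: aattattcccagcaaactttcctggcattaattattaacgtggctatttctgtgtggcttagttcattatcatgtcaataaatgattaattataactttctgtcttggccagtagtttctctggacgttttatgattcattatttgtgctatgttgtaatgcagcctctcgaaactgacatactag
Slc51b: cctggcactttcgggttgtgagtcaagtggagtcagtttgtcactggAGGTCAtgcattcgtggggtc
Fabp6: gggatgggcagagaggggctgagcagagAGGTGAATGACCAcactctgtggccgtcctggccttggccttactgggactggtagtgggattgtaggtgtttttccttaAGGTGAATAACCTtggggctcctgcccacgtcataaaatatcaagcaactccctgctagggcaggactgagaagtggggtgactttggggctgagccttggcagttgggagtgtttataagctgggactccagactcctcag

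Of the 8 members, 6 were in the promoter table: Slc10a2, Fabp6, Slc51a, Slc51b, Nr1h4 and Nr0b2. The 250 bases before each start were searched on both strands. The FXR inverted repeat, AGGTCA, any 1 base, TGACCT, was allowed 2 mismatches, and 0.959% of the 32851 promoters of the table held it. Fabp6 had 2 matches, from -222 to -210 and from -142 to -130 relative to the start, each with 2 mismatches, and the other 5 promoters had 0. The half-site AGGTCA (or TGACCT), which the inverted repeat contains, was present in Slc51a, Slc51b and Nr1h4 and in 14.02% of all promoters. Slc10a2 and Nr0b2 held neither motif. The Nr1h4 window precedes the downstream start, of Nr1h4-201 and Nr1h4-202, and the bases before the upstream start of Nr1h4-203 were not searched. A match describes letters in this window and is not shown to be a bound site.

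Libraries held 1882214 to 2706841 counts in propyzamide and 1573592 to 2258149 counts in vehicle, so that 1 count equals 0.340 to 0.609 CPM (CPM scales a count to library size, here after TMM scaling). The TMM factor was 1.61 in vehicle replicate 1 and 0.797 in vehicle replicate 2, against 0.806 to 1.10 in propyzamide. A factor above 1 lowers the CPM of a library. Ribosomal RNA-like loci took 36.7% to 41.6% of the counts in propyzamide, against 26.3% and 43.6% in vehicle. Smell and pheromone receptor genes, which colon should lack, gave a background of 0.0779 to 0.614 counts per kilobase in propyzamide and of 0.749 and 1.18 in vehicle. The propyzamide and the vehicle libraries also carry different second index sequences, so that treatment and any index batch cannot be told apart. Of 12024 genes tested with edgeR, 229 passed an adjusted p of 0.05.

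In propyzamide colon, Slc10a2 and Slc51b rose and Slc51a was high in 2 of 3 libraries. Nr1h4 and Abcc3 averaged above vehicle in CPM without passing the test, and both overlapped between the groups in TPM. Fabp6, Nr0b2 and Fgf15 were at or near 0. By count, 5 of the 8 members had enough reads to be tested, 2 of them were higher, 0 were lower and 3 did not pass. Over all genes tested 1.90% passed in either direction and 0.690% passed as higher. The members' median difference was 3.07 on the log2 scale and all 5 tested members were positive, beside a median of -0.02 over all tested genes. The other 3 members did not reach the filter on low counts. In CPM, 3 of the 5 tested members (Slc10a2, Slc51b and Nr1h4) did not overlap between the groups, as did 37.5% of all tested genes. Since the members were picked from this contrast, nothing follows from these shares.

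**Figure D1:**
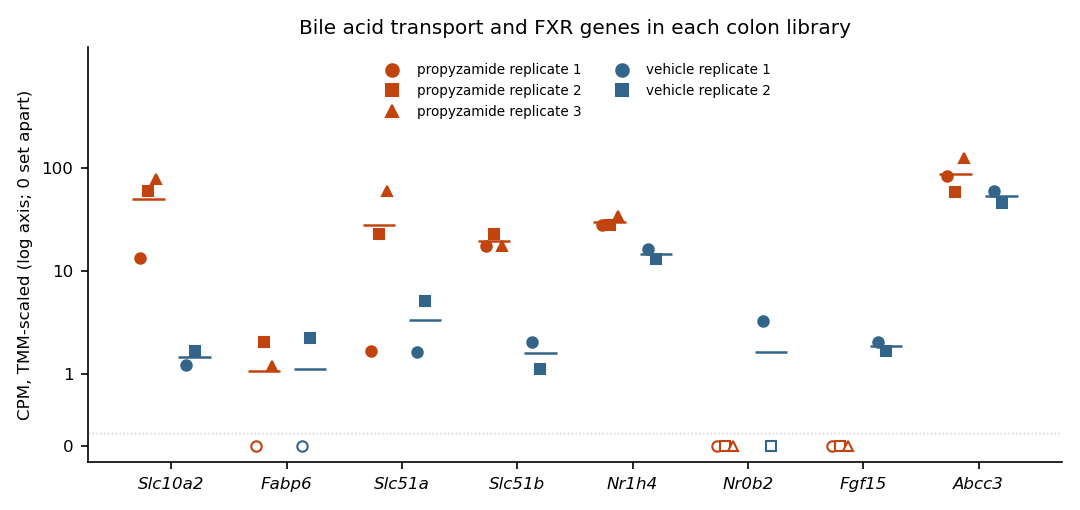
CPM (TMM-scaled, log axis with 0 set apart) of the 8 members in each library, propyzamide in red and vehicle in blue; horizontal bars are group means and open symbols are libraries at 0 counts. Slc10a2 and Slc51b separate the groups, Slc51a spans 1.70 to 59.7 CPM within propyzamide, and Fgf15 and Nr0b2 are at 0 in all 3 propyzamide libraries.

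Slc10a2, the apical uptake carrier (ENSMUSG00000023073.2, GRCm38 chr8:5083219-5105351, minus strand), stood at 13.6, 59.6 and 77.9 CPM in propyzamide, against 1.24 and 1.70 CPM in vehicle. All 3 propyzamide libraries were above both vehicle libraries, and propyzamide replicate 1 was the lowest of the 3. The means were 50.4 ± 33.1 CPM in propyzamide (SD, n = 3) and 1.47 ± 0.326 CPM in vehicle (SD, n = 2), a log2 difference of 5.05 ± 0.83 (SE). In counts these values are 40, 116 and 128 in propyzamide and 3 in each vehicle library. The pooled ratio was 30.3, with an exact interval of 13.7 to 83.2 that covers counting error only. Background alone would put 8.02 counts on the gene over the vehicle libraries, where 6 were seen, and 3.63 over the propyzamide libraries, where 284 were seen. Slc10a2 was therefore not detectable above background in vehicle at this depth. With vehicle replicate 1 left out Slc10a2 no longer passed (log2 difference 4.80, edgeR adjusted p = 0.20), nor did it with vehicle replicate 2 left out (5.31, edgeR adjusted p = 0.102); each leaves a single vehicle library.

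Fabp6, the cytosolic bile acid binding protein that accompanies Slc10a2 in ileum (ENSMUSG00000020405.4, chr11:43596049-43601540), had 0, 4 and 2 counts in propyzamide and 0 and 4 counts in vehicle. The groups overlapped fully, and the pooled ratio was 0.960 with an exact counting interval of 0.228 to 4.62. The 2 propyzamide libraries with the most Slc10a2 thus held 4 and 2 counts of Fabp6 beside 116 and 128 of Slc10a2. Per length, in TPM (a length-corrected share, the authors' values summed per gene), Fabp6 stood at 0, 5.17 and 2.96 in propyzamide and at 0 and 5.63 in vehicle. Its transcript is short, so that a TPM of this size rests on 2 to 4 counts.

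Slc51a and Slc51b encode the α and β subunits of the basolateral exporter, and neither carries bile acids alone. Slc51b (ENSMUSG00000053862.6, chr9:65412714-65422955, minus strand) had 17.7, 23.1 and 17.7 CPM in propyzamide, against 2.07 and 1.14 CPM in vehicle. The 3 propyzamide libraries lay close together, at 19.5 ± 3.14 CPM (SD, n = 3), and apart from the vehicle libraries, at 1.601 ± 0.660 CPM (SD, n = 2). The log2 difference was 3.52 ± 0.62 (SE), and the counts were 52, 45 and 29 in propyzamide and 5 and 2 in vehicle. The pooled ratio of Slc51b was 11.5, with an exact counting interval of 5.43 to 29.2. Slc51b, too, no longer passed when either vehicle library was left out (edgeR adjusted p = 0.143 for replicate 1 and 0.137 for replicate 2).

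Slc51a (ENSMUSG00000035699.8, chr16:32474504-32487879, minus strand) had 1.70, 23.1 and 59.7 CPM in propyzamide, against 1.65 and 5.11 CPM in vehicle. Propyzamide replicate 1 lay within the vehicle range and the other two lay above it. The log2 difference of 3.07 ± 1.09 (SE) did not pass the threshold. Without propyzamide replicate 1 Slc51a passed, with a log2 difference of 3.61 (edgeR adjusted p = 0.0107), and it also passed with DESeq2 (DESeq2 adjusted p = 0.0369) and without the filter on low counts (edgeR adjusted p = 7.35e-05). The subunits did not keep a fixed proportion: the ratio of Slc51a to Slc51b in TPM was 0.0435, 0.254 and 1.41 in propyzamide and 0.322 and 1.09 in vehicle. Propyzamide replicate 1 thus had 35.4 TPM of the β subunit and 1.54 TPM of the α subunit, while propyzamide replicate 3 had 24.9 and 35.0 TPM. The vehicle ratios rest on 4 and 9 counts of Slc51a and 5 and 2 of Slc51b, too few to compare. The α value of propyzamide replicate 1 rests on 5 counts. The α value of propyzamide replicate 3 depends on the transcript assigned, since a shorter transcript, Slc51a-202, took 79.0% of its counts. Slc51a overlaps Pcyt1a, in its last exon, and Slc51b overlaps Rasl12, each on the other strand. SMART-Seq2 libraries do not mark strand. Rasl12 had 1.01 to 10 counts in propyzamide and 6 and 10 in vehicle, and Pcyt1a had 66.0 to 95 in propyzamide and 38.0 and 36.2 in vehicle.

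Abcc3, an ATP-driven exporter of conjugated bile acids and other organic anions (ENSMUSG00000020865.16, chr11:94343295-94392997, minus strand), was the member with most counts. It had 83.3, 58.5 and 125 CPM in propyzamide, against 60.8 and 46.0 CPM in vehicle. Propyzamide replicate 2 lay below vehicle replicate 1, so the groups overlapped. The log2 difference was 0.73 ± 0.39 (SE) and did not pass the threshold. Its interval of 2 SE, from -0.06 to 1.52, does not exclude a rise of the size measured for Nr1h4, and a missed threshold does not show equal levels.

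Nr1h4, the gene of FXR (ENSMUSG00000047638.15, chr10:89454234-89533585, minus strand), had 27.9, 28.2 and 34.1 CPM in propyzamide, against 16.5 and 13.1 CPM in vehicle. The groups did not overlap in CPM, with means of 30.1 ± 3.49 CPM in propyzamide (SD, n = 3) and 14.8 ± 2.47 CPM in vehicle (SD, n = 2). The log2 difference was 1.01 ± 0.39 (SE) and did not pass the threshold, in this fit or in any of the 15 alternatives. In TPM the groups overlapped, at 16.2, 12.3 and 14.2 in propyzamide and 14.97 and 5.36 in vehicle. The receptor was well above background in both groups, with 193 counts in propyzamide against 1.75 expected and 63 counts in vehicle against 3.86 expected.

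Nr0b2, the gene of SHP, a repressor that lacks a DNA-binding domain and is induced by FXR (ENSMUSG00000037583.2, chr4:133553376-133556536), had 0 counts in all 3 propyzamide libraries, and 8 and 0 counts in vehicle. Fgf15, the hormone by which the ileum signals to the liver to restrain bile acid synthesis (ENSMUSG00000031073.6, chr7:144896531-144900953), had 0 counts in all 3 propyzamide libraries, and 5 and 3 counts in vehicle. For each gene 0 counts over the propyzamide group allow up to 0.459 CPM, and the vehicle counts compare with 2.19 (Nr0b2) and 2.67 (Fgf15) expected from background. Neither gene reached the filter, and in the fit without a filter neither passed (edgeR adjusted p = 0.174 for Nr0b2 and 0.155 for Fgf15). Fgf15 also overlaps 2 antisense genes on the other strand, Gm26793 with 0 counts in propyzamide and 5 and 4 in vehicle, and Gm39119 with 0 counts in propyzamide and 2 and 1 in vehicle. The vehicle reads of Fgf15 cannot be told apart from those of its antisense partners by strand.

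**Figure D2:**
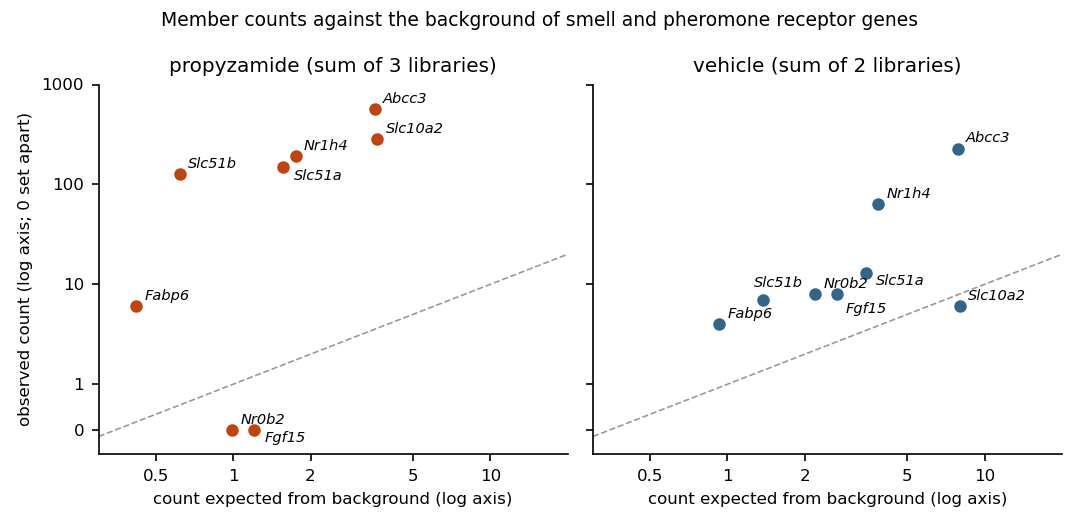
Observed count of each member, summed over the libraries of a group, against the count expected from the per-kilobase background of receptor genes (both log axes, 0 set apart; dashed line: observed equals expected), propyzamide on the left and vehicle on the right. Abcc3 and Nr1h4 lie well above the line in both groups, while Slc10a2 lies at 284 counts in propyzamide and at 6, below the line, in vehicle.

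Ordered by TPM within a library, Slc51b was the highest member in propyzamide replicates 1 and 2 and Slc51a in replicate 3, against Abcc3 in both vehicle libraries. The rank of Slc51a in propyzamide replicate 3 rests on the assignment of counts to Slc51a-202, of 1349 bases against 2618 for Slc51a-201. There Slc51a-202 took 79.0% of the gene's counts and 87.3% of its TPM. Slc51b stood at 35.4, 33.7 and 24.9 TPM in propyzamide and at 6.56 and 1.61 TPM in vehicle. Abcc3 stood at 21.1, 15.1 and 22.5 TPM in propyzamide and at 31.6 and 7.18 TPM in vehicle. In vehicle replicate 1 a short processed transcript, Abcc3-203, took 2.82% of the gene's counts and 23.7% of its TPM, so a level per length rests in part on few reads. Slc10a2 had rank 4 of 8 in each propyzamide library, at 3.61, 11.8 and 14.99 TPM, and rank 7 in each vehicle library, at 0.51 and 0.32 TPM. As a ratio of TPM, Slc10a2 to Abcc3 was 0.171, 0.785 and 0.665 in propyzamide and 0.0161 and 0.0446 in vehicle. The ratio of Slc51b to Abcc3 was 1.68, 2.23 and 1.10 in propyzamide and 0.208 and 0.224 in vehicle. Both ratios separated the groups. In vehicle they rest on 3 counts of Slc10a2 per library, no more than background would give, and on 5 and 2 counts of Slc51b. How often ratios of other genes separate these libraries was not measured. FPKM gave the same order in all 5 libraries.

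The counts of Nr1h4 and Slc51a were divided among transcripts that differ in short stretches and also in their ends. Those stretches are shown as part of what tells the transcripts apart. Nr1h4-203 also differs from Nr1h4-201 and Nr1h4-202 in its first exon, its exon number (10 against 9) and its last exon (576 against 715 bases). Capitals mark the part present in 1 transcript and absent from the other, with 15 flanking bases on either side (GENCODE M21 transcripts, minus strand, 5′ to 3′). The Nr1h4 insert lies at chr10:89483372-89483383, in coding sequence after the DNA-binding domain, and is in Nr1h4-202 and Nr1h4-203 but not in Nr1h4-201. The Slc51a exon lies at chr16:32478716-32478789 and is in Slc51a-201 but not in Slc51a-202, which is annotated as a target of nonsense-mediated decay.
Nr1h4 insert: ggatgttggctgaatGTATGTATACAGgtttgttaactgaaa
Slc51a exon: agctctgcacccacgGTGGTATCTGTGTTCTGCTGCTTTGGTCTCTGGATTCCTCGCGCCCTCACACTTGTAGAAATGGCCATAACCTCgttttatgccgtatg

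Transcripts of Nr1h4 with the insert took 65.0%, 52.0% and 100% of the gene's counts in propyzamide, against 100% in both vehicle libraries. The exact binomial 95% intervals were 53.3% to 74.9%, 38.8% to 66.4% and 93.6% to 100% in propyzamide, and 91.2% to 100% and 85.2% to 100% in vehicle. Nr1h4-201, which lacks the insert, was thus assigned counts in propyzamide replicates 1 and 2 only, and propyzamide replicate 3 matched the vehicle libraries. In propyzamide replicates 1 and 2 Nr1h4-202 held 0 counts, so the insert share there is also the share of Nr1h4-203 and its first exon. Nr1h4-203, which starts at an upstream first exon, took 65.0%, 52.0% and 76.3% in propyzamide, and 22.5% and 100% in vehicle, where the vehicle libraries lay on either side of all propyzamide libraries. Few reads cross the insert at 23 to 82 counts per library, and RSEM estimates the rest of the division.

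For Slc51a, propyzamide replicate 2 had 87.5% of 45.5 counts on the full-length Slc51a-201 and 12.5% on Slc51a-202. In propyzamide replicate 3 these shares were 17.3% and 79.0% of 98.0 counts, with exact intervals of 10.4% to 26.3% and 69.1% to 86.2%. The 2 propyzamide libraries with most Slc51a therefore differed in the transcript their counts were assigned to. The models also differ in the length of their last exon, 1375 bases in Slc51a-201 and 356 bases in Slc51a-202, so coverage of the 3′ end bears on the division too. In propyzamide replicate 1 all 5 counts were on Slc51a-202, and in vehicle the totals of 4.0 and 8.8 counts are too few to divide. Slc10a2, Slc51b, Fabp6 and Nr0b2 have a single annotated transcript.

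**Figure D3:**
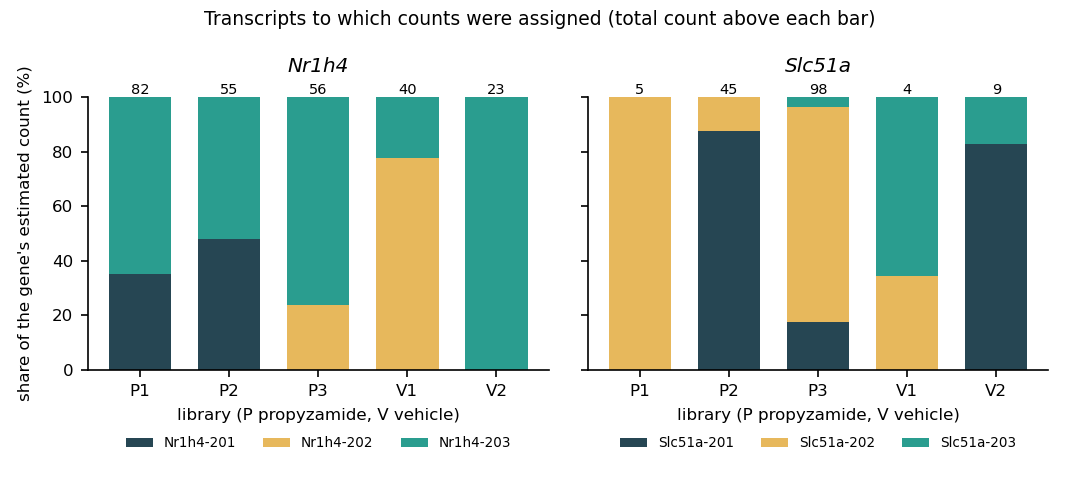
Share of the estimated counts of Nr1h4 and Slc51a assigned to each annotated transcript (percent, stacked bars), by library, with P for propyzamide and V for vehicle and the gene's count above each bar. Nr1h4-201 appears in propyzamide replicates 1 and 2 only, and Slc51a counts are mostly on Slc51a-201 in propyzamide replicate 2 and on Slc51a-202 in replicate 3.

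Bulk RNA cannot tell fewer cells of a type from less RNA per cell, and the pieces differed in make-up. Markers of epithelium summed to 8502, 7286 and 6304 CPM in propyzamide and to 6825 and 5808 CPM in vehicle, and 0 of 10 passed the test. Per 10000 counts of these markers Slc10a2 stood at 16.0, 81.7 and 124 in propyzamide and at 1.82 and 2.93 in vehicle. On that scale Slc51b stood at 20.8, 31.7 and 28.0 in propyzamide and at 3.03 and 1.95 in vehicle. Nr1h4 stood at 32.8, 38.8 and 54.1 in propyzamide and at 24.2 and 22.5 in vehicle, and Abcc3 at 97.9, 80.3 and 198 in propyzamide and at 89.1 and 79.1 in vehicle. Slc51a stood at 2.00, 31.7 and 94.6 in propyzamide and at 2.42 and 8.79 in vehicle. Relative to epithelium, Slc10a2, Slc51b and Nr1h4 stood higher in every propyzamide library than in both vehicle libraries, while Slc51a and Abcc3 overlapped. The share of all genes that separate on this scale was not measured, and in CPM it was 37.5% of tested genes.

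Slc10a2 and Fabp6 are genes of the ileum, so markers of small-intestine enterocytes were measured beside them. The list of 24 summed to 478, 1313 and 684 CPM in propyzamide and to 255 and 356 CPM in vehicle. Fabp2 alone held 228, 837 and 453 CPM of the propyzamide sums, so they do not show a rise of the whole list. Of 11 tested, 2 rose, Fabp2 and Alpi, and 0 fell, with 8 positive, 3 negative and a median log2 difference of 1.01. The 3 negative genes were Slc15a1 (log2 difference -1.91), Dpp4 (-1.12) and Slc5a1 (-0.31), none past the threshold. Slc15a1 had 11.6, 47.7 and 5.48 CPM in propyzamide against 30.2 and 133 in vehicle. Fabp2, which binds fatty acids in enterocytes, had 228, 837 and 453 CPM in propyzamide against 7.44 and 2.84 in vehicle. Alpi, the intestinal alkaline phosphatase, had 32.6, 13.9 and 33.5 CPM in propyzamide against 0.827 and 0 in vehicle. Apoa1, an apolipoprotein of small intestine and liver, had 2.72, 59.0 and 13.4 CPM in propyzamide against 0 in both vehicle libraries and did not pass (edgeR adjusted p = 0.0504). Anpep had 1.36, 19.0 and 9.74 CPM in propyzamide against 5.38 and 1.14 in vehicle, and Cubn had 0, 7.19 and 9.13 CPM in propyzamide against 0.827 and 1.70 in vehicle, neither past the threshold. Sis, the sucrase-isomaltase of the brush border, had 0, 12.8 and 1.22 CPM in propyzamide against 0 and 0.567 in vehicle. Enpp7 and Slc2a2 were at 0 in all 3 propyzamide libraries, against 0.414 and 0 CPM (Enpp7) and 4.55 and 1.70 CPM (Slc2a2) in vehicle. Fabp1 had 0, 1.54 and 0 CPM in propyzamide and 0 in both vehicle libraries. These markers were named after their values were seen. Paneth cell markers, which the small intestine holds, summed to 0, 1.54 and 0 CPM in propyzamide and to 27.7 and 7.38 CPM in vehicle. Lyz1, the 1 member tested and most of that sum, fell (log2 difference -4.86, edgeR adjusted p = 0.0466), and the defensins Defa17, Defa21, Defa22 and Defa24 were at 0 in every library.

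The colon identity list summed to 9999, 8814 and 11480 CPM in propyzamide and to 5239 and 5098 CPM in vehicle. Without Car1 and Guca2a, left out after their values were seen, the other 7 genes summed to 4702, 2144 and 2943 CPM in propyzamide and to 4113 and 3878 CPM in vehicle. Of the 9 genes, all tested, Guca2a rose, Mptx1 fell and 7 did not pass, with 3 positive, 6 negative and a median log2 difference of -0.13. Posterior Hox genes, whose levels rise toward the anus, summed to 56.1, 53.4 and 44.4 CPM in propyzamide and to 237 and 291 CPM in vehicle. Most of the vehicle sum was Hoxb13, and without it, also left out after its values were seen, the other 7 genes summed to 33.0, 37.0 and 39.6 CPM in propyzamide and to 71.5 and 112 CPM in vehicle. Of 6 tested, Hoxd13, Hoxd11 and Hoxb13 fell, and Hoxd13, Hoxd12 and Hoxd11 were at 0 in all propyzamide libraries. The HoxA members did not share this direction. Hoxa10 had 18.4, 19.0 and 21.9 CPM in propyzamide against 10.8 and 9.65 in vehicle and did not pass. Hoxa11 had 4.42, 4.11 and 4.26 CPM in propyzamide against 2.48 and 2.27 in vehicle and was not tested. Hoxa13 had 10.2, 13.9 and 10.4 CPM in propyzamide against 4.55 and 9.08 in vehicle and did not pass. The position along the colon at which each piece was cut, and its part in the member values, was not tested. Smooth muscle markers summed to 5488, 8147 and 9157 CPM in propyzamide and to 482 and 3117 CPM in vehicle, with 0 of 8 passing. All 8 were positive, with a median log2 difference of 2.17. Adipocyte markers summed to 48.6, 105 and 310 CPM in propyzamide and to 10.8 and 18.7 CPM in vehicle, where Cfd and Cidec rose, of 3 tested. Cfd was most of the sum in propyzamide replicate 3, at 192 CPM. Fabp4, Adipoq and Retn averaged higher in propyzamide, while Plin1 and Lep, not tested, were lower. Plin1 had 0.340, 0 and 1.22 CPM in propyzamide against 2.48 and 2.84 in vehicle. Lep was at 0 in propyzamide against 2.48 and 1.70 CPM in vehicle. Immune cell markers summed to 37.4, 134 and 206 CPM in propyzamide and to 93.1 and 81.1 CPM in vehicle, with 0 of 2 tested passing. Lyz2 carried most of that sum, and without it, again chosen after its values were seen, the other 8 genes summed to 11.9, 26.7 and 24.4 CPM in propyzamide and to 31.4 and 34.6 CPM in vehicle. Cd3e and Cd79a were at 0 in all propyzamide libraries. Hepatocyte markers summed to 1.02, 7.70 and 75.5 CPM in propyzamide, most of it Cyp2e1, and to 5.38 and 2.27 CPM in vehicle, while Alb was at 0, 0 and 1.22 CPM in propyzamide and at 0 in vehicle. Within propyzamide, Slc10a2 and Slc51a were lowest in replicate 1 and highest in replicate 3, as were the smooth muscle and adipocyte sums, Cyp2e1 and Lyz2. The epithelium sum ran the other way, and so did the posterior Hox sum. Without Hoxb13 the other Hox genes were lowest in replicate 1 and highest in replicate 3, like Slc10a2. The small-intestine enterocyte sum was highest in replicate 2, where the colon identity sum was lowest. The part of these cells and genes in the member values was not tested.

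The rest of the bile acid pathway was followed in 48 further genes on 6 lists. Of these 30 were tested, and 1 passed, Cdx2. Cdx2, a caudal-type homeobox factor that maintains intestinal epithelial identity, had 20.7, 40.6 and 14.0 CPM in propyzamide, against 2.90 and 1.14 CPM in vehicle. It was higher in each of the 3 propyzamide libraries than in both vehicle libraries, a log2 difference of 3.54 ± 0.68 (SE), with an edgeR adjusted p of 0.0274. Cdx2 did not pass when either vehicle library or propyzamide replicate 2 was left out, nor with limma on log2(TPM + 1) and log2(TPM + 0.1). The list it belongs to, regulators of bile acid transport genes, had 1 of 10 tested members higher and 0 lower, with a median of 0.02 on the log2 scale. In that list Fos, an immediate early factor, differed by 1.53 ± 0.43 (SE, as in the values that follow; edgeR adjusted p = 0.0785), Nr3c1, the glucocorticoid receptor, by 0.86 ± 0.38 (edgeR adjusted p = 0.252), and Nr1h2, a liver X receptor, by -0.73 ± 0.48 (edgeR adjusted p = 0.465). Hnf4a, named here after its values were seen, had 171, 170 and 133 CPM in propyzamide and 164 and 165 CPM in vehicle.

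Among other bile acid carriers 5 of 11 were tested and 0 passed, with a median log2 difference of 0.06. Abcg2, an apical exporter of sulfated bile acids among many other substrates, had 41.5, 99.1 and 46.3 CPM in propyzamide, against 26.9 and 13.1 CPM in vehicle, a log2 difference of 1.62 ± 0.49 (edgeR adjusted p = 0.104). Abcb1a, an apical efflux pump, differed by 0.34 ± 0.39 (edgeR adjusted p = 0.708) and Abcc2, an apical exporter of conjugates, by -0.94 ± 0.89 (edgeR adjusted p = 0.635). The liver carriers Slc10a1, Slco1b2 and Abcb11 were at 0 in propyzamide and at 0.414 to 1.65 CPM in vehicle, and Slco1a1 was at 0 throughout. Over the vehicle libraries Slc10a1, Slco1b2 and Abcb11 had 6, 2 and 3 counts, where background alone would give 2.8, 3.1 and 6.8.

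Among other bile acid receptors and RXR partners 5 of 7 were tested and 0 passed, with a median log2 difference of -0.37. Nr1i3, the constitutive androstane receptor, had 0, 1.03 and 0 CPM in propyzamide, against 7.03 and 9.08 CPM in vehicle, a log2 difference of -4.43 ± 1.16 (edgeR adjusted p = 0.0638). Vdr, the vitamin D receptor that also binds lithocholic acid, differed by -0.40 ± 0.40 (edgeR adjusted p = 0.647), and Nr1i2, the pregnane X receptor, by 0.70 ± 0.57 (edgeR adjusted p = 0.563). Rxra, the partner of FXR, had 21.1, 16.9 and 47.5 CPM in propyzamide and 17.0 and 26.1 CPM in vehicle, so the groups overlapped. Gpbar1, the membrane receptor TGR5, had 0 counts in propyzamide and 1.65 and 2.27 CPM in vehicle and was not tested. Rxra and Gpbar1 were named after their values were seen.

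Other gut genes that FXR is reported to induce did not move one way: 3 of 4 were tested, 0 passed and the median log2 difference was -0.24. Car12, a membrane carbonic anhydrase, had 31.6, 18.0 and 36.5 CPM in propyzamide against 7.44 and 9.08 CPM in vehicle, 1.80 ± 0.48 on the log2 scale (edgeR adjusted p = 0.0671). Il18, an interleukin of epithelial cells, had 33.0, 8.73 and 14.0 CPM in propyzamide against 77.8 and 56.2 CPM in vehicle, -1.82 ± 0.48 on the log2 scale (edgeR adjusted p = 0.0674). Ang, an angiogenin, differed by -0.24 ± 0.82 (edgeR adjusted p = 0.918). Of the genes for reception and secretion of Fgf15, 1 of 3 was tested: Klb, the β-Klotho coreceptor, had 0, 0.513 and 0 CPM in propyzamide against 3.31 and 10.8 CPM in vehicle, -5.03 ± 1.29 on the log2 scale (edgeR adjusted p = 0.0596). Among genes of bile acid synthesis and conjugation 6 of 12 were tested and 0 passed, with a median of 0.22. There Cyp27a1, the sterol 27-hydroxylase, differed by -1.71 ± 0.63 (edgeR adjusted p = 0.172), Scp2, a peroxisomal thiolase and sterol carrier, by 0.73 ± 0.37 (edgeR adjusted p = 0.324) and Hsd17b4, a peroxisomal β-oxidation enzyme, by 0.59 ± 0.48 (edgeR adjusted p = 0.569).

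**Figure D4:**
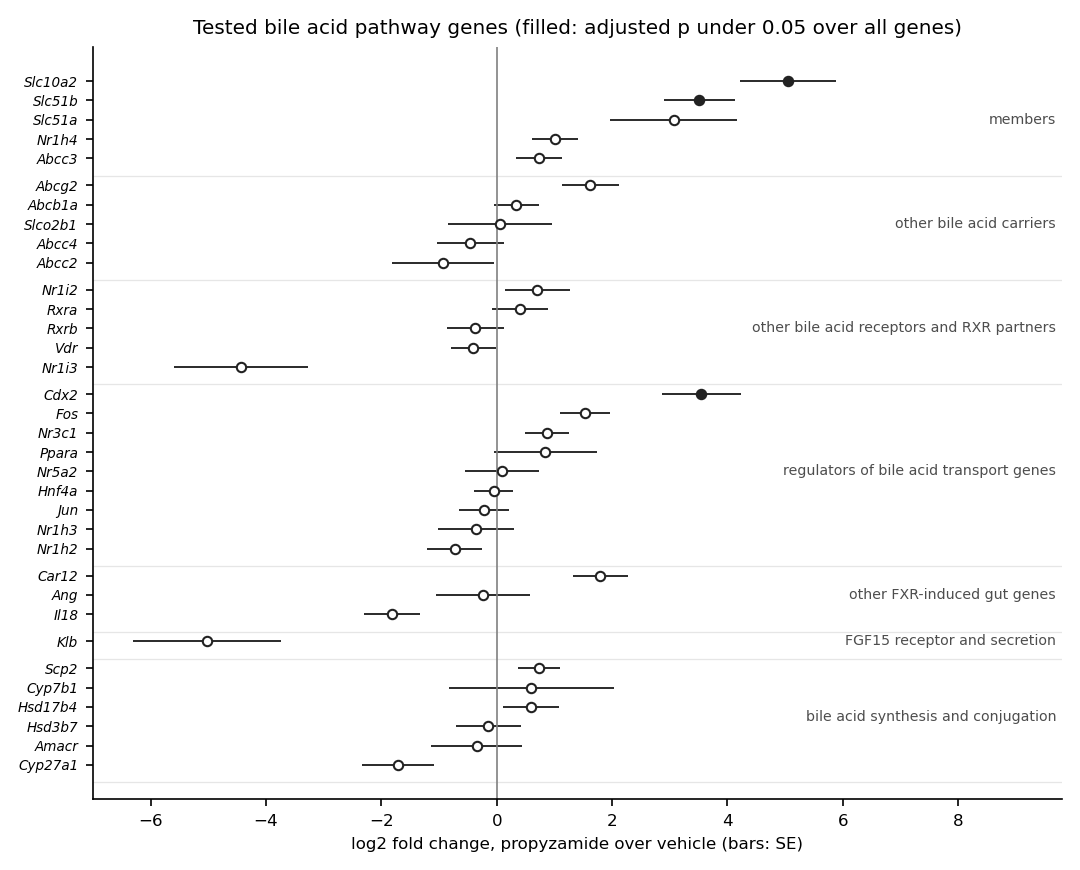
Log2 fold change of propyzamide over vehicle (points, with SE bars) for the 5 tested members and tested genes of the other pathway lists, each list ordered by value; filled points passed an adjusted p of 0.05 over all genes. Slc10a2, Slc51b and Cdx2 are filled, and Klb and Nr1i3 lie farthest to the left.

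By pattern over the 5 libraries, the genes most like Slc10a2 were Ctxn3, Hp, Rgs5, Aldh1a1 and Gal. Likeness was the mean absolute difference of log2(CPM + 2) after each gene was centred on its own mean, and it came to 0.20, 0.293, 0.339, 0.357 and 0.418 for these genes in that order. Ctxn3, a cortexin, had 14.3, 49.3 and 44.4 CPM in propyzamide and 0.827 and 1.14 CPM in vehicle. Hp, the haemoglobin-binding haptoglobin, had 11.6, 46.2 and 89.5 CPM in propyzamide and 2.90 and 2.27 CPM in vehicle. Rgs5, a regulator of G-protein signalling known from pericytes, had 161, 549 and 415 CPM in propyzamide and 19.0 and 31.8 CPM in vehicle. Aldh1a1, a retinaldehyde dehydrogenase, had 47.9, 142 and 149 CPM in propyzamide and 10.8 CPM in each vehicle library. Gal, the neuropeptide galanin, had 4.76, 47.2 and 54.8 CPM in propyzamide and 1.24 and 2.84 CPM in vehicle. In all 5, as in Slc10a2, propyzamide replicate 1 was the lowest propyzamide library and lay above both vehicle libraries. The choice of these genes used the same 5 libraries, and no test was made of the likeness.

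**Figure D5:**
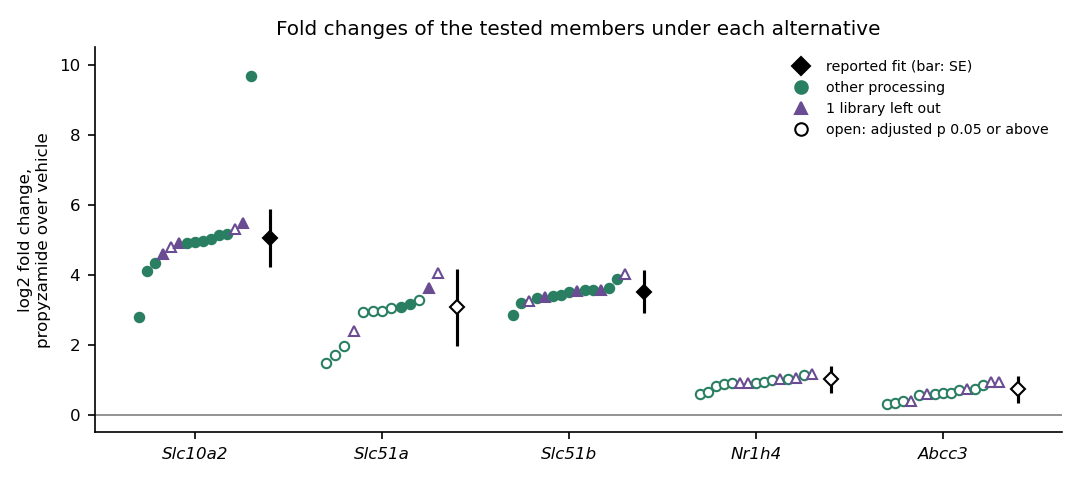
Log2 fold change of propyzamide over vehicle for the 5 tested members in the reported fit (diamonds, with SE bars), under other processing (circles) and with 1 library left out (triangles); filled symbols have an adjusted p under 0.05. Slc10a2 and Slc51b are filled in all but 2 triangles each, Nr1h4 and Abcc3 are open throughout, and all values lie above 0.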

How the data were processed

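For every transcript of a library the authors deposited an estimated count, a TPM, an FPKM and its percent of the gene, per the file headers. The submitters' processing notes name RSEM and kallisto, with no version, and the build GRCm38; libraries were SMART-Seq2, per the labels' protocols. Neither the annotation release nor any use of strand is stated in these sources. Estimated counts (142647 transcripts) were added up per gene and rounded; 99.4% of gene identifiers had a symbol in GENCODE M21. RSEM divides reads among transcripts, so overlapping or near-identical genes can share counts, and reads carry no molecular identifiers, so intervals cover counting error only.

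All 5 libraries entered 1 edgeR 4.0.16 model (R 4.3.3): filterByExpr, TMM scaling, quasi-likelihood test and Benjamini-Hochberg adjustment over all genes. The step was tested on simulated counts with known changes. Alternatives were DESeq2 1.42.0, limma 3.58.1 on TPM, other scalings and filters, a replicate block, background subtraction and each library left out. No library pair was a duplicate (chi-square per degree of freedom 16.0 to 48.1).

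The members, the lists and the rule for named genes were chosen with earlier results of these data known. The rule took all members, each gene of another list that passed and up to 3 more of smallest p, and the 5 genes most like Slc10a2. A group total of 3 counts, the floor used for a gene at 0, equals 0.459 CPM in propyzamide and 0.718 CPM in vehicle. One listed regulator and its motif are not reported here.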

Additional observations from a re-analysis of the deposited data

How the results depend on the processing

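All 5 tested members were positive under each alternative that could test them. Slc10a2 and Slc51b passed in 13 of 15 alternatives, with log2 differences of 2.80 to 9.68 and 2.85 to 4.01; the highest value of Slc10a2 came with background subtracted, which leaves 0 counts in vehicle, and is no bound. Slc51a passed in 3 of 13 (1.47 to 4.06), and Nr1h4 (0.59 to 1.18) and Abcc3 (0.31 to 0.95) in 0 of 15. The number of members that passed was 2 in the reported fit and 0 to 3 with 1 library left out. Of the 48 other pathway genes 1 passed, against 6 with DESeq2, 7 without a filter on low counts, 3 and 2 with limma on log2(TPM + 1) and log2(TPM + 0.1), 4 with a replicate block, 2 without rRNA-like and mitochondrial genes, 4 with scaling to epithelium markers, and 0 to 2 with 1 library left out. Over all genes 229 passed, against 565 with DESeq2, 1327 without a filter, 490 with limma on log2(TPM + 1), 640 with a replicate block, 362 without rRNA-like and mitochondrial genes, 423 with scaling to epithelium markers, 114 with background subtracted, and 36 to 499 with 1 library left out (36 and 55 without vehicle replicates 1 and 2, 499 and 78 without propyzamide replicates 1 and 3). The cause of these shifts was not tested. Of the genes that passed, 63.8% were lower, against 49.4% with the block, 52.6% with background subtracted, 74.8% with upper-quartile scaling, 82.0% with scaling to epithelium markers and 86.5% and 85.6% with limma on TPM; without vehicle replicate 2 most were higher, with 36.4% lower. The median log2 difference of all genes, -0.02 in the reported fit, was -0.14 with upper-quartile scaling and -0.23 with scaling to epithelium markers. It was -0.39 and -0.47 with limma on TPM, which changes the unit, the test and the scaling together. The replicate numbers are not shown to pair the libraries: the groups share 2 numbers, and the correlations of same-numbered deviations were 0.188 and 0.156. Centring 2 vehicle libraries fixes the correlations across numbers at the mirror values, -0.188 and -0.156. The correlations therefore cannot decide whether the numbers pair the libraries. Depth limits Fabp6, Nr0b2 and Fgf15, each with at most 10 counts over all libraries.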
